A study of Mus musculus with 30 samples.

Results

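The 10 genes described here, which mark hepatic stellate cells or the matrix these cells lay down, were followed through 30 liver libraries: Lrat, Reln, Ecm1, Hgf, Dcn, Bgn, Lum, Pdgfrb, Rgs5 and Des. They were picked by symbol as known genes of this cell type, with earlier results of these data already known. All 10 were found among the 48440 genes of the deposited count table, and all 10 passed the filter on low counts. The livers came from wild-type female C57BL/6 J mice, given an osmotic pump at 8 weeks of age that held phosphate-buffered saline (PBS) or recombinant ACBP/DBI at 2.5 mg/mL. ACBP is the acyl-CoA-binding protein made from the gene Dbi. Anorexia was then induced with CDDP, the usual abbreviation of cisplatin, 72 hours after the pump or with CRS 48 hours after it. The labels do not spell out CRS. The 6 groups of 5 libraries are labelled PBS, CDDP, CRS, Rec-ACBP, Rec-ACBP+CDDP and Rec-ACBP+CRS, the last 3 written here as ACBP, CDDP+ACBP and CRS+ACBP. The CDDP and CRS labels do not name the pump, which by the series design is read here as PBS. The design has no food-restricted control group, so effects of CDDP or CRS and of any change in food intake cannot be told apart. The labels do not tie libraries to animals, so p-values measure only the spread between libraries, which may be technical.

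Stellate cells lie between the hepatocytes and the sinusoidal endothelium. In the resting liver they store vitamin A as retinyl esters, which LRAT makes, and they wrap the sinusoids in the way that pericytes wrap other small vessels. After injury they can turn into myofibroblasts, which secrete collagen and proteoglycans, and PDGF acting on its receptor is a main signal for their growth. They also release HGF, a growth factor for hepatocytes, and reelin, a large secreted glycoprotein best known from the developing brain. The genes differ in how far they mark this cell type alone: portal fibroblasts also express Dcn, Lum and Bgn, mural cells of vessels express Pdgfrb and Rgs5, and skeletal and smooth muscle express Des.

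The DNA just before the start site is shown for 3 of the genes, since the data separate them: Ecm1 and Reln were lower after CDDP, while Lrat did not pass the test there. Each sequence is the 250 bases upstream of a RefSeq transcript start on GRCm38.p6, 5′ to 3′ on the gene's own strand. The Ecm1 window lies at chr3:95739570-95739819 (minus strand), that of Reln at chr5:22344706-22344955 (minus strand) and that of Lrat at chr3:82903975-82904224 (minus strand). Capitals mark a match to a searched motif.
Ecm1: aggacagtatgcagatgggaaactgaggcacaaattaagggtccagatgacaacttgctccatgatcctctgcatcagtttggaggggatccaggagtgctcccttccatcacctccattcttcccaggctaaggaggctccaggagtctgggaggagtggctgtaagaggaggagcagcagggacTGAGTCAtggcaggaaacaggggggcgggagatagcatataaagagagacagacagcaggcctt
Reln: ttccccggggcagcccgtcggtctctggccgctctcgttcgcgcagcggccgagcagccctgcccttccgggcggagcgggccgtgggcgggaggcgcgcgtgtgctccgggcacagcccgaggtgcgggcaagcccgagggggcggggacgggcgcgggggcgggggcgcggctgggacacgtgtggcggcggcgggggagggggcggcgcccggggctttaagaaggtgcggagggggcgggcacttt
Lrat: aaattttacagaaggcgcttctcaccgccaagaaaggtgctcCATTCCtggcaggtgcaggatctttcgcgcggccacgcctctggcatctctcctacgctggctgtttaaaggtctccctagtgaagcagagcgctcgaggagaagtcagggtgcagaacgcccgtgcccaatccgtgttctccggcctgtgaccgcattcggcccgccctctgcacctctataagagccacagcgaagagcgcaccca
These 3 motifs were searched on both strands, and no matches overlapped: TGANTCA (AP-1), GGAATG (TEAD) and TAATTA (the core of LIM-homeobox factors such as LHX2). The Ecm1 window held 1 AP-1 match, whose first base lies at -64 from the start, and AP-1 letters occurred in 6.75% of 32851 RefSeq windows of this length. In the Lrat window there was 1 TEAD match on the opposite strand, at -208, against 12.6% of all windows. No window of the other genes with an entry (Des, Rgs5, Hgf, Reln, Bgn) held any of the 3 motifs, and TAATTA, in 4.84% of all windows, was in none of them. The Reln window had 80.0% G and C with 37 CG dinucleotides and the Ecm1 window 54.0% with 1, beside medians of 52.4% and 6 over all windows. These 2 genes thus have start regions of unlike base composition. A match is a description of letters and no evidence of binding.

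Each library held between 13957380 and 18479134 reads assigned to genes. Levels are given as CPM, a gene's counts divided by that total and multiplied by 1000000. Dbi stood between 227 and 1210 CPM over the 30 libraries. Cdkn1a, the p53 target that encodes p21, was at 0.726 to 6.76 CPM in PBS, at 159 to 403 in CDDP and at 5.35 to 66.4 in CDDP+ACBP, so the CDDP libraries stood apart from PBS while those of CDDP+ACBP overlapped it at their low end. Hepatocyte transcripts filled all libraries: Alb ranged from 34028 to 80300 CPM.

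Some libraries stood apart in ways that touch the stellate genes. CDDP replicate 5 had the fewest genes at 1 CPM or more (12002, against 14618 in the richest library) and a TMM scaling factor of 0.701, where the other 29 ranged from 0.920 to 1.19. It was the lowest CDDP library for 9 of the 10 genes, Des being the exception, and the 10 genes summed to 105 CPM there against 239 to 345 in the other CDDP libraries. Skeletal muscle transcripts were abundant in 6 libraries: a list of 20 muscle genes summed to 12708 CPM in PBS replicate 2, 4339 in CDDP+ACBP replicate 2, 3908 in CRS replicate 1, 2804 and 2449 in CRS+ACBP replicates 3 and 4, and 2503 in ACBP replicate 2. In the other 24 libraries the sum was between 21 and 1013 CPM, with up to 11 of the 20 muscle genes at 0. ACBP replicate 4 had the highest sum of 12 brain genes, 434 CPM. The CDDP libraries also differed as a group: mitochondrial transcripts made up 2.74% to 3.81% of their reads on genes, against 9.24% to 13.6% in PBS and 5.43% to 12.6% in CDDP+ACBP. The share of reads counted on genes was 39.4% to 42.6% in CDDP, 36.3% to 38.3% in PBS and 36.3% to 38.6% in CDDP+ACBP. Neither share overlapped between CDDP and PBS, as with Ecm1 and Reln below, and their part in the results was not tested. Results are also given without CDDP replicate 5 and without these 7 libraries.

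CDDP was first compared with PBS. Ecm1, Reln, Pdgfrb and Rgs5 fell and none of the 10 genes rose. The retinoid and proteoglycan markers Lrat, Dcn, Bgn and Lum did not pass the test. The call of Rgs5 depended on the libraries and the fit, as given below. The test was edgeR's quasi-likelihood F test in 1 fit of all libraries, with Benjamini-Hochberg adjustment over 16304 genes and a threshold of 0.05. Of the 16304 genes tested, 18.3% were lower in CDDP by this rule and 41.4% changed in either direction, so 4 lower of 10 is read against a broad response. Non-overlapping CPM with all CDDP libraries lower was seen for 3 of the 10 genes and for 11.9% of all genes. The median log2 fold change was -0.64 over the 10 genes and 0.02 over all genes tested. In bulk liver, fewer stellate cells and less of a transcript per stellate cell cannot be told apart. Nor can either be told from a change in other cells that express the same gene.

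Ecm1 encodes a secreted glycoprotein of the extracellular matrix, and in liver it is known for holding TGF-beta in its latent form (ENSMUSG00000028108, chromosome 3, 95734147 to 95739569). The 5 PBS libraries held 271, 197, 230, 242 and 232 CPM of Ecm1. The CDDP libraries held 130, 102, 136, 117 and 25.3 CPM. Every CDDP library was below every PBS library, and replicate 5 was far below the other 4. Mean Ecm1 was 234 ± 26.4 CPM (SD, n = 5) in PBS and 102 ± 44.9 in CDDP, a log2 fold change of -1.19 ± 0.21 (approximate SE, edgeR adjusted p = 5.92e-05). Without CDDP replicate 5 the log2 fold change of Ecm1 was -0.98.

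Reln encodes reelin (ENSMUSG00000042453, chromosome 5, 21884454 to 22344702). In PBS it stood at 27.1, 27.8, 30.4, 27.7 and 24.2 CPM, a spread of 1.25 times from lowest to highest. After CDDP its values were 21.2, 5.79, 14.1, 9.75 and 1.75 CPM, a spread of 12.1 times. The groups did not overlap, but CDDP replicate 1 was close to PBS while replicates 2 and 5 were far from it. Mean Reln went from 27.4 ± 2.2 to 10.5 ± 7.53 CPM (log2 fold change -1.39 ± 0.28, edgeR adjusted p = 0.000336). Its log2 fold change was -1.14 without CDDP replicate 5 and -1.39 without the 7 libraries rich in muscle or brain transcripts.

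Pdgfrb encodes the receptor for PDGF-B on stellate cells and pericytes (ENSMUSG00000024620, chromosome 18). The PBS libraries held 9.27, 13.1, 9.56, 10.1 and 10.6 CPM and the CDDP libraries 9.13, 4.06, 6.34, 7.97 and 1.58. The highest CDDP library and the lowest PBS library nearly met. The log2 fold change was -0.85 ± 0.25 (edgeR adjusted p = 0.00715), and -0.65 without CDDP replicate 5. Against a fold of at least 1.5 Pdgfrb did not pass (glmTreat adjusted p = 0.186), and of the 10 genes only Ecm1 and Reln did, beside 16.2% of all genes.

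Rgs5 encodes a regulator of G protein signalling that marks pericytes and vascular smooth muscle (ENSMUSG00000026678, chromosome 1, 169655501 to 169695813). Its PBS values were 11.7, 52.0, 15.3, 13.3 and 10.9 CPM, and its CDDP values 8.96, 9.04, 10.3, 15.3 and 2.03. PBS replicate 2, the library with the most muscle transcripts, stood far above the rest, and the groups overlapped. The log2 fold change was -1.18 ± 0.42 (edgeR adjusted p = 0.0253). This call depended on single libraries: without PBS replicate 2 the log2 fold change was -0.49 (adjusted p = 0.303), and without CDDP replicate 5 it was -0.96 (adjusted p = 0.0714). It was also lost with the muscle score as a covariate (adjusted p = 0.0758) and without the 7 libraries (adjusted p = 0.26). With all libraries of both groups kept, limma voom (adjusted p = 0.178) and edgeR on CDDP and PBS alone (0.0769) did not call Rgs5. Nor did it pass against a fold of at least 1.5 (glmTreat adjusted p = 0.125).

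Lrat, the enzyme that esterifies retinol for storage (ENSMUSG00000028003, chromosome 3, 82892579 to 82903973), stood at 9.27, 9.36, 6.09, 6.63 and 7.92 CPM in PBS and at 7.78, 5.57, 4.54, 12.9 and 0.621 in CDDP. CDDP replicate 4 was above every PBS library and replicate 5 below every one, so the log2 fold change of -0.34 ± 0.40 did not pass (edgeR adjusted p = 0.527). Hgf (ENSMUSG00000028864, chromosome 5, 16553495 to 16620152) was the scarcest of the 10, at 0.726 to 1.91 CPM in PBS. After CDDP its values were 2.0, 2.0, 1.86, 2.62 and 0.339 CPM. Hgf was thus near or above the top of the PBS range in 4 CDDP libraries and below it in the other one, with a log2 fold change of 0.36 ± 0.35 (edgeR adjusted p = 0.431).

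The 3 small leucine-rich proteoglycans of the matrix showed no shared shift. Decorin, which binds collagen fibrils (Dcn, ENSMUSG00000019929, chromosome 10, 97479609 to 97518143), stood at 66.1, 57.9, 54.0, 54.4 and 38.9 CPM in PBS. Its CDDP values were 84.6, 67.8, 76.1, 97.8 and 14.5 CPM. Thus 4 CDDP libraries exceeded the whole PBS range and 1 lay below it, and with all 5 the log2 fold change was 0.33 ± 0.27 (edgeR adjusted p = 0.345). Without CDDP replicate 5 it was 0.56 and passed the test, as higher, at an adjusted p of 0.0489. Biglycan (Bgn, ENSMUSG00000031375, chromosome X, 73483602 to 73495933) ranged from 48 to 59 CPM in PBS and from 8.64 to 53.2 in CDDP, with a log2 fold change of -0.44 ± 0.22 (adjusted p = 0.113). Without CDDP replicate 1 biglycan passed as lower, at a log2 fold change of -0.58 and an adjusted p of 0.0421. Without CDDP replicate 5 it did not pass, at a log2 fold change of -0.22 and an adjusted p of 0.288. Lumican (Lum, ENSMUSG00000036446, chromosome 10, 97565128 to 97572703) ranged from 2.36 to 5.72 CPM in PBS and from 0.113 to 6.85 in CDDP, with a log2 fold change of -0.02 ± 0.46 (adjusted p = 0.979).

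**Figure D1:**
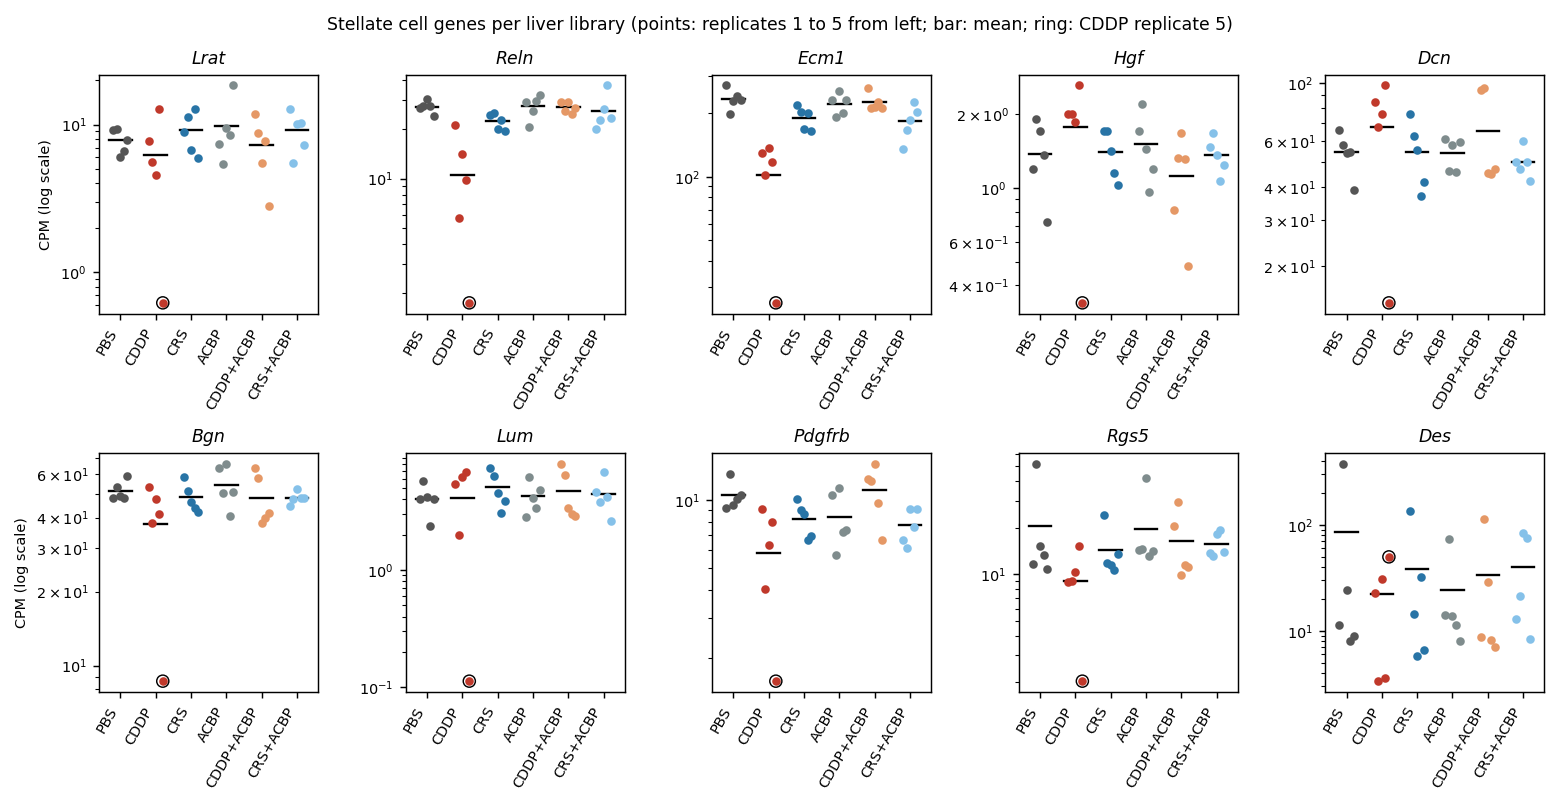
CPM of each of the 10 genes (log scale, 1 panel a gene) in the 5 libraries of each group; points are libraries, bars are group means and the ring marks CDDP replicate 5. In the Ecm1 and Reln panels all CDDP points lie below all PBS points, while in the Dcn panel 4 CDDP points lie above them and the ringed one below.

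The genes therefore parted within the CDDP libraries, which ratios taken inside a library show without any scaling between libraries. The pairs were chosen after the values were seen, so they are a description with no test. Ecm1 over Dcn, as a ratio of counts, was 3.41 to 5.96 in PBS and 1.20 to 1.79 in CDDP, with 1.75 in CDDP replicate 5. That library, in which nearly all of these genes were low, thus had an Ecm1 over Dcn ratio like the other CDDP libraries. Reln over Dcn was 0.409 to 0.622 in PBS and 0.0855 to 0.251 in CDDP. Dcn over Bgn went the other way, from 0.661 to 1.38 in PBS to 1.59 to 2.36 in CDDP. None of these 3 ratios overlapped between PBS and CDDP.

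**Figure D2:**
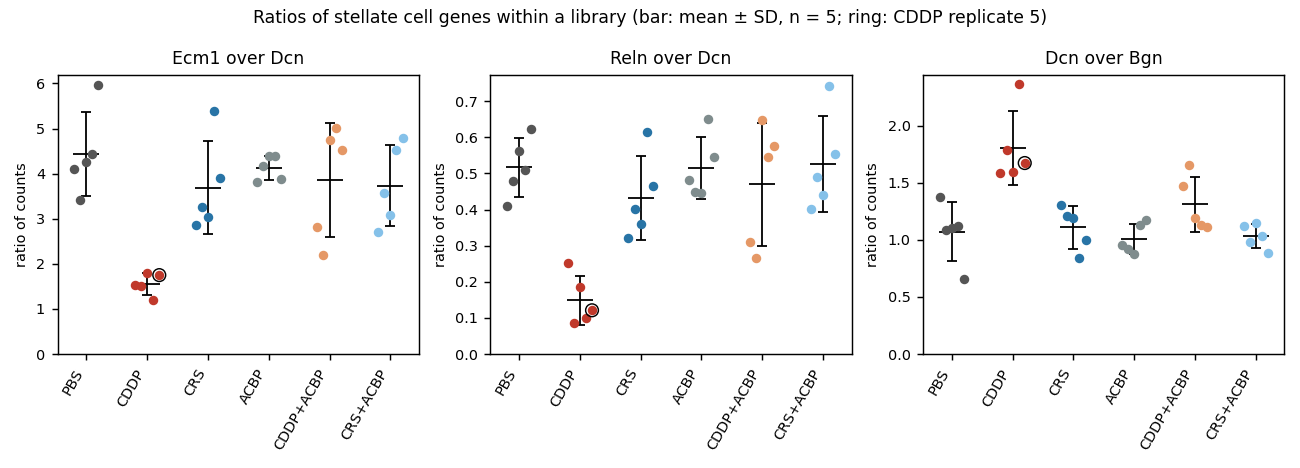
Ratios of counts within each library (Ecm1 over Dcn, Reln over Dcn, Dcn over Bgn), 1 point a library by group; bars are mean ± SD over 5 libraries and the ring marks CDDP replicate 5. The CDDP libraries lie at 1.20 to 1.79 for Ecm1 over Dcn, below the PBS range of 3.41 to 5.96, and the ringed library lies among them.

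Desmin, the intermediate filament gene Des (ENSMUSG00000026208, chromosome 1, 75360329 to 75368579), is a classic stellate marker in rodents but is far more abundant in muscle. It stood at 11.4, 377, 24.2, 8.0 and 8.91 CPM in PBS and at 22.7, 3.36, 30.8, 3.57 and 49.8 in CDDP. Its highest values over all groups were 377, 134, 114, 83.9, 74.7 and 73.6 CPM, in the 6 libraries with the most muscle transcripts. Of the 10 libraries highest in Des, 8 were among the 10 highest in the summed muscle list, where Des ranged from 21.5 to 377 CPM against 3.36 to 30.8 in the other 20. The log2 fold change of Des in CDDP was -1.71 ± 1.09 (edgeR adjusted p = 0.212), and it was 0.98 without the 7 libraries and 0.18 with the muscle score as a covariate, neither of which passed. The sign for Des thus turned with the handling of muscle-rich libraries. Of the 10 libraries highest in Rgs5 7 were among the 10 richest in muscle transcripts, and of those highest in Dcn only 2.

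**Figure D3:**
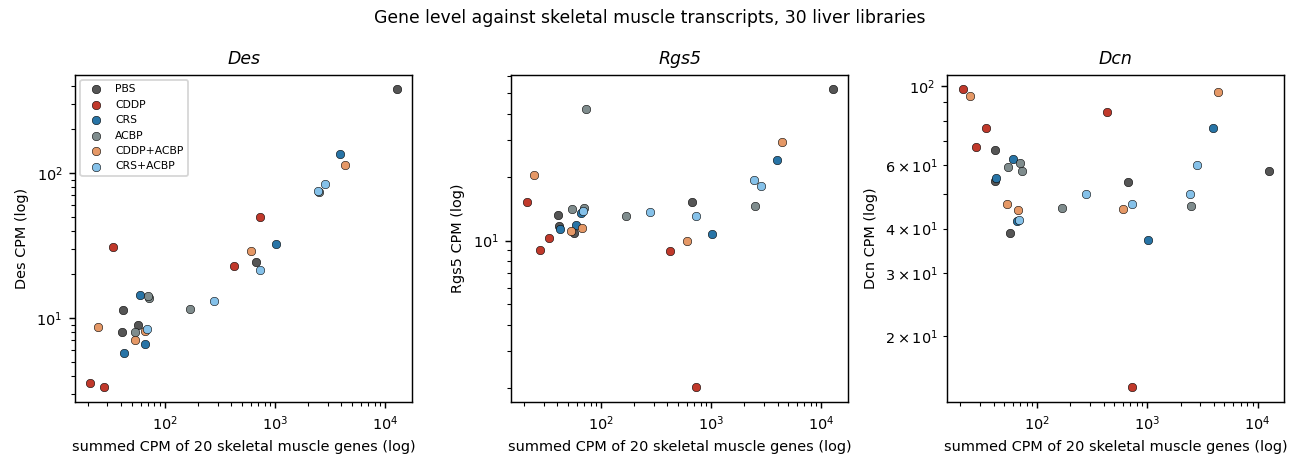
CPM of Des, Rgs5 and Dcn (vertical, log scale) against the summed CPM of 20 skeletal muscle genes (horizontal, log scale), 1 point for each of 30 libraries, coloured by group. Des climbs with muscle transcripts to 377 CPM in PBS replicate 2, whereas Dcn shows no such climb.

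Adding ACBP to CDDP was the next comparison. With the ACBP pump, Ecm1, Reln and Pdgfrb were higher than in CDDP alone and none of the 10 genes was lower. Over all genes tested 14.9% were higher, 18.8% lower and 33.8% changed in either direction. The groups did not overlap for Ecm1 and Reln, as for 6.74% of all genes. This comparison shares the CDDP libraries with the one above, so a low CDDP library moves both.

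Ecm1 in CDDP+ACBP was 264, 211, 215, 226 and 211 CPM, all above the CDDP maximum of 136 and inside the PBS range. Its log2 fold change over CDDP was 1.10 ± 0.21 (edgeR adjusted p = 0.00023), and 0.88 without CDDP replicate 5. Reln was 29.2, 25.6, 29.4, 24.6 and 27 CPM, again inside the PBS range and with a spread of only 1.19 times (log2 fold change 1.33 ± 0.28, adjusted p = 0.000775). Reln's log2 fold change was 1.09 without CDDP replicate 5. Pdgfrb was 12.4, 12.2, 14.5, 9.70 and 6.66 CPM, overlapping CDDP through replicate 5 (log2 fold change 0.86 ± 0.25, adjusted p = 0.00811). Fitted on CDDP and CDDP+ACBP alone, Pdgfrb did not pass (adjusted p = 0.0772).

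The other 7 genes did not pass. Rgs5 was at 20.5, 29.3, 9.92, 11.4 and 11.1 CPM (log2 fold change 0.80 ± 0.42, edgeR adjusted p = 0.137). Hgf was at 0.811, 1.33, 1.68, 1.31 and 0.480 CPM, with a log2 fold change of -0.73 ± 0.35 (adjusted p = 0.107). Every Hgf value was below those of CDDP replicates 1 to 4, and without CDDP replicate 5 the fall passed the test at -0.96 (adjusted p = 0.0227). Dcn split within the group, with 93.8 and 96.0 CPM in replicates 1 and 2 and 45.1 to 46.8 in the other 3. The first 2 lay near the upper CDDP values and the other 3 lay in the PBS range, so the mean of 65.4 ± 27 CPM describes none of the 5 libraries well. Bgn and Lum split with it: replicates 1 and 2 held 63.6 and 58.0 CPM of Bgn against 38.1 to 41.9, and 8.05 and 6.45 CPM of Lum against 2.88 to 3.35. Ecm1 over Dcn followed this split, at 2.81 and 2.2 in replicates 1 and 2 and 4.51 to 5.02 in the other 3, while Ecm1 alone did not.

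Whether CDDP acted differently under the 2 pumps was tested as an interaction, the CDDP effect under ACBP minus that under PBS. It passed for Ecm1 (1.16 ± 0.29 on the log2 scale, edgeR adjusted p = 0.00665), Reln (1.31 ± 0.40, adjusted p = 0.0203) and Pdgfrb (1.16 ± 0.35, adjusted p = 0.019), all as higher, while 8.38% of all genes passed as higher and 19.7% in either direction. Against a fold of at least 1.5 none of the 10 passed, beside 5.06% of all genes. Under the ACBP pump the effect of CDDP itself was -0.03 ± 0.21 for Ecm1, -0.08 ± 0.28 for Reln and 0.31 ± 0.25 for Pdgfrb, and none of these passed. In that comparison, CDDP+ACBP against ACBP, edgeR called 0 of the 10 genes, as did DESeq2 and limma voom, none had an unadjusted p under 0.05, and edgeR called 0.129% of all genes. Without the 7 libraries rich in muscle or brain transcripts, which leaves 3 ACBP and 4 CDDP+ACBP libraries, the interaction passed for Ecm1, as for 10.4% of all genes, but not for Reln (1.24, adjusted p = 0.1) or Pdgfrb (0.82, adjusted p = 0.195). Fitted on the 4 groups compared alone, the interaction of Reln narrowly missed the threshold (1.33, adjusted p = 0.0503).

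**Figure D4:**
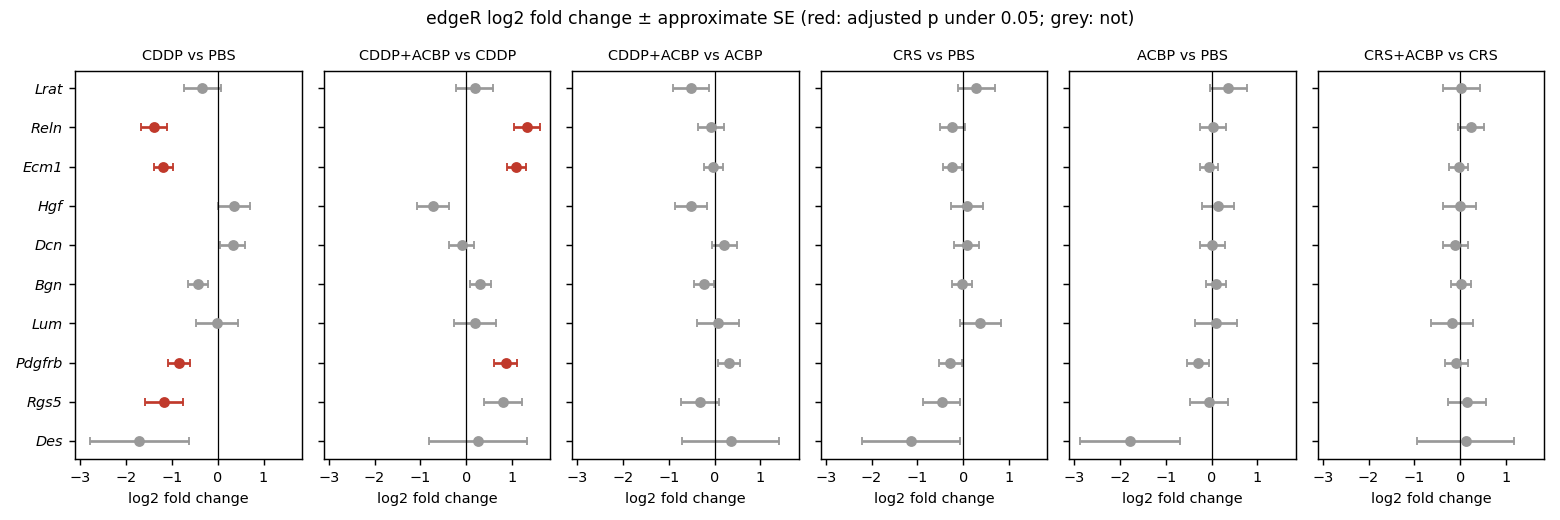
edgeR log2 fold changes (points) ± approximate SE (bars) of the 10 genes in 6 comparisons; red marks an adjusted p under 0.05. Ecm1 and Reln lie at -1.19 and -1.39 for CDDP against PBS, at 1.10 and 1.33 for CDDP+ACBP against CDDP, and near 0 in the panel of CDDP+ACBP against ACBP.

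CRS did not change the 10 genes by the test. Against PBS edgeR called 0 of 10, as did DESeq2 and limma voom, none had an unadjusted p under 0.05, and 0.141% of all genes were called. Ecm1 stood at 164 to 218 CPM in CRS and Reln at 19.5 to 25, log2 fold changes of -0.23 and -0.23 from PBS. The ACBP pump alone was compared with PBS, CRS+ACBP with CRS and with ACBP, and the CRS effect between the pumps. In each of these 4 comparisons edgeR, DESeq2 and limma voom called 0 of the 10 genes, none had an unadjusted p under 0.05, and edgeR called 0.0% of all genes. Set against CRS, CDDP gave lower Ecm1 (log2 fold change -0.96 ± 0.21, edgeR adjusted p = 0.000786) and Reln (-1.15 ± 0.28, adjusted p = 0.00247), 2 of the 10 genes beside 15.1% of all genes lower and 34.6% changed. Pdgfrb did not pass there (-0.57, adjusted p = 0.0728), but did with DESeq2 (adjusted p = 0.0451) and without CDDP replicate 1 (-0.78, adjusted p = 0.0157). Against a fold of at least 1.5 neither Ecm1 (glmTreat adjusted p = 0.0806) nor Reln (0.0579) passed, and fitted on CDDP and CRS alone Reln did not (adjusted p = 0.0524). By group mean, Ecm1 ran from 234 CPM in PBS through 226 in CDDP+ACBP, 222 in ACBP, 191 in CRS and 183 in CRS+ACBP to 102 in CDDP. Neighbours in this order overlapped, including the lowest CRS+ACBP library (135 CPM) and the highest of CDDP (136 CPM). For Reln the order was 27.6 CPM in ACBP, 27.4 in PBS, 27.2 in CDDP+ACBP, 26 in CRS+ACBP, 22.4 in CRS and 10.5 in CDDP, again with overlap between neighbours.

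Levels between genes are compared per kilobase of exon, since long transcripts collect more reads. In PBS Ecm1 was the most abundant of the 10 at 92.9 ± 10.5 CPM per kb, and Hgf the least at 0.192 ± 0.0641. Dcn (9.30) and Bgn (8.44) followed Ecm1 once Des was set aside, whose 22.9 ± 43.3 CPM per kb rested on PBS replicate 2. Reln, at 27.4 CPM, was only ninth per kb (1.16), with 23738 bases of exon against 5838 for Dcn. This length joins all annotated exons of a gene and can exceed that of any of its transcripts, so the rank depends on it. Ecm1 stayed first, Reln ninth and Hgf last in each of the 6 groups.

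Other genes known from stellate cells were read from a list of 18, of which 17 were tested. In CDDP against PBS 8 were lower and 0 higher, beside 18.3% and 23.1% of all genes, and the list's median log2 fold change was -0.84 against 0.02 over all genes. Angptl6, an angiopoietin-like secreted factor, went from 67.1 ± 16.5 to 23.1 ± 12.8 CPM (log2 fold change -1.53, edgeR adjusted p = 3.4e-05). Colec11, a collectin of the lectin complement pathway, went from 28.3 ± 4.60 to 8.61 ± 5.06 CPM (-1.72) and Tcf21, a transcription factor of quiescent stellate cells, from 4.02 ± 0.897 to 1.54 ± 0.853 (-1.36). With ACBP added to CDDP 8 of 17 were higher and 0 lower, beside 14.9% and 18.8% of all genes, Angptl6 standing at 71.9 ± 19.8, Colec11 at 28.5 ± 4.39 and Tcf21 at 4.67 ± 0.846 CPM. The count of 8 was the same without CDDP replicate 5 and without the 7 libraries in both comparisons. Fitted on the compared groups alone, it was 4 for CDDP and 3 for ACBP added to CDDP. The share of all genes called in those fits is not given here, so these counts show only that the calls depend on the fit. Not all stellate genes moved: Pdgfra, which encodes the other PDGF receptor chain, was at 4.39 ± 1.13 CPM in PBS and 4.63 ± 2.21 in CDDP, and Cygb at 11.6 ± 2.24 and 9.64 ± 5.84 (both chosen after their values were seen).

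**Figure D5:**
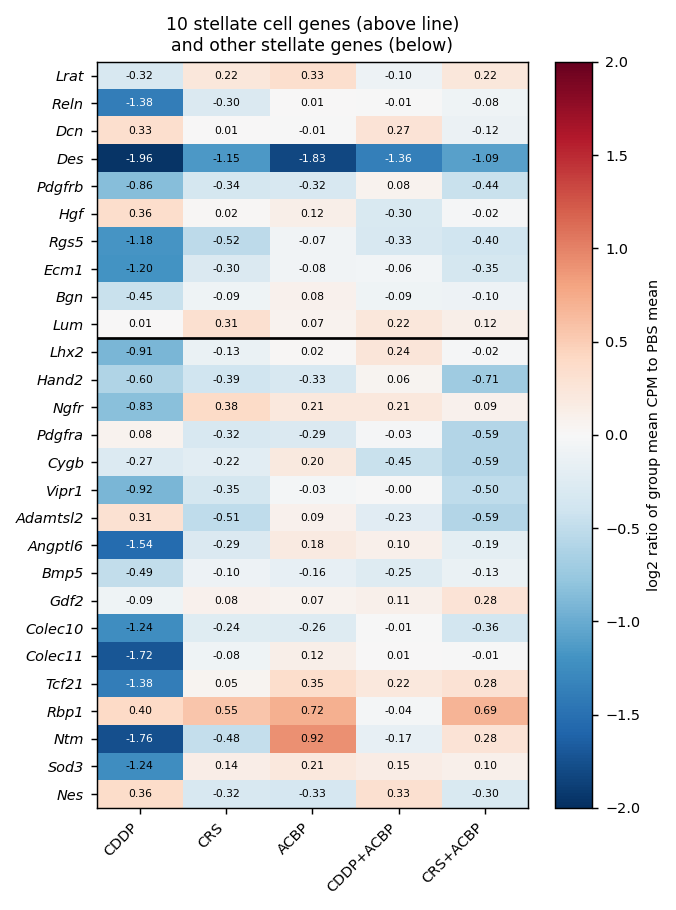
Log2 ratio of each group's mean CPM to the PBS mean (number and colour) for the 10 genes above the line and 17 other stellate genes below it. Des aside, the CDDP column holds the darkest blues, with -1.20 for Ecm1, -1.38 for Reln and -1.72 for Colec11, while Dcn, Hgf and Lum among the 10 are at or above 0 there; Des is blue in all 5 columns, from -1.09 to -1.96, relative to a PBS mean that rests on 1 muscle-rich library.

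Genes of stellate activation did not move as one. For this and the lists that follow, the shares over all genes in CDDP against PBS are 23.1% higher, 18.3% lower and 41.4% in either direction, and a count near them says nothing about a list. Of 17 tested myofibroblast genes 2 were higher in CDDP, among them Timp1 (0.171 ± 0.147 to 0.840 ± 0.748 CPM), an inhibitor of matrix proteases, and 2 were lower, the crosslinking enzyme gene Loxl1 and the collagen gene Col3a1. The count of 4 was 7 without CDDP replicate 3, 2 without PBS replicate 5 or CDDP replicate 2, and 1 without CDDP replicate 4. Of 18 other proteoglycan and matrix genes 3 were higher and 6 lower, led by syndecan-3 (Sdc3, 47.2 ± 8.62 to 18.4 ± 8.44 CPM, log2 fold change -1.35). That count of 9 fell to 2 without PBS replicate 4 or without CDDP replicate 5, and to 4 without PBS replicate 2, PBS replicate 5 or CDDP replicate 2, so apart from its leading gene this list is weakly determined. In the TGF-beta list 3 of 16 were higher and 5 lower, together 8 of 16 beside 41.4% of all genes: Ltbp4, which anchors latent TGF-beta, went from 32.6 ± 8.56 to 7.10 ± 3.58 CPM, and the receptor gene Tgfbr2 from 8.05 ± 2.53 to 32.5 ± 22.1. With ACBP added to CDDP (14.9% of all genes higher, 18.8% lower) 5 of the 16 were higher and 3 lower, with Ltbp4 at 25.8 ± 4.97 and Tgfbr2 at 9.75 ± 2.88 CPM.

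Partners of the 10 genes were read from 4 further lists. In the retinoid list, which Lrat belongs to by function, 3 of 14 were higher in CDDP and 3 lower. These counts are close to the shares over all genes (23.1% and 18.3%). The higher ones were Rbp4, Rdh11 and Bco1, and the lower ones Rara, Dhrs3 and Ttr. Rara, a retinoic acid receptor, went from 39.3 ± 9.28 to 17.4 ± 5.63 CPM (log2 fold change -1.13), and Dhrs3, which reduces retinal and is itself induced by retinoic acid, from 186 ± 24.5 to 68.9 ± 47.3 (-1.38). With ACBP added to CDDP 3 of the 14 were higher and 2 lower (14.9% and 18.8% of all genes). Rara stood at 36.3 ± 7.27 CPM and Dhrs3 at 195 ± 38.7. Ttr was also higher, and Rbp4 and Bco1 were the lower ones. Among reelin's receptors and signalling partners 1 of 7 was higher and 3 lower, beside 23.1% and 18.3% of all genes: Pafah1b1 rose (0.89), and Dab2 (-1.01), Fyn (-1.08) and the receptor gene Vldlr (-0.87) fell on the log2 scale. Of 5 genes around the PDGF receptors, Pdgfa alone was called, as higher (0.61, edgeR adjusted p = 0.05, just under the threshold). Around HGF 1 of 8 was higher and 1 lower, beside the same shares. The lower one, Hgfac, encodes the hepatocyte-made protease that activates HGF and went from 669 ± 71.7 to 239 ± 76.9 CPM (log2 fold change -1.38), while the HGF receptor gene Met did not pass (38.3 ± 2.74 and 30.3 ± 8.60 CPM). The higher one, St14, encodes another activating protease.

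Markers of neighbouring cell types moved in the same libraries, and their part in the results above was not tested. The counts below stand beside 18.3% of all genes lower and 23.1% higher in CDDP. Of 14 sinusoidal endothelial genes 7 were lower in CDDP and 1, Lyve1, was higher, with sums of 297 to 375 CPM in PBS, 77.5 to 325 in CDDP and 248 to 428 in CDDP+ACBP. Of 11 Kupffer cell genes 7 were lower and 1 higher, with sums of 362 to 440, 175 to 306 and 217 to 283 CPM in the same groups. No marker of these 2 lists was at 0 in any library. Portal fibroblast and mesothelial genes, 3 of 12 lower and 0 higher, summed to 84.1 to 137 CPM in PBS and 14.8 to 160 in CDDP, with up to 7 of the 13 at 0. Cholangiocyte genes, 4 of 5 higher and 0 lower, summed to 7.27 to 14.1 and 7.12 to 67.5 CPM. Of 9 hepatocyte genes 4 were higher and 1 lower, of 7 smooth muscle genes 2 and 1, of 20 skeletal muscle genes 0 and 3, of 6 brain genes 0 and 2, and of 6 adipose genes 1 and 0. In CDDP+ACBP against ACBP, where 0.129% of all genes were called, only the Kupffer cell list had called genes, with 5 of 11 lower.

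Across libraries the genes other than Des varied together within groups, in large part through CDDP replicate 5. After each group's mean log2 CPM was subtracted, the 36 pairs that leave out Des had a median Pearson r of 0.64 over 30 libraries, and all 36 were positive. Without CDDP replicate 5 the median was 0.28, with 33 positive. The 9 pairs with Des had a median r of -0.05, 3 of them positive, and 0.24 without that library. Ecm1 and Reln gave r = 0.83, and 0.55 without that library. These are descriptions of libraries that share a tissue and a depth range. No r over pairs of other genes is given beside them, so the counts of positive pairs say nothing particular about these genes. The genes most like the mean of the 9 genes were Serpinh1, the collagen chaperone (r = 0.91 over 30 libraries, 0.75 without CDDP replicate 5), Angptl2 (0.91 and 0.73), Col14a1 (0.91 and 0.68), Fbln5 (0.90 and 0.69), Pam (0.90 and 0.67), Igfbp7 (0.89 and 0.67), Sparc (0.89 and 0.67), Tmem204 (0.89 and 0.77), Tns3 (0.89 and 0.61) and Colec11 (0.89 and 0.55). This order rests on CDDP replicate 5: without it Tmem204 ranked 1, Serpinh1 3 and Angptl2 4, the other 7 left the first 10, with Tns3 at rank 56 and Colec11 at 145, and Islr, absent above, ranked 2 (r = 0.77).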

How the data were processed

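The authors deposited raw read counts per gene for 30 liver mRNA libraries, 5 in each of 6 groups, with no normalization. Per the labels' protocols, library preparation was strand-specific and started from 1.5 µg of RNA. Per the submitters' processing notes, HISAT2 2.2.1, HTSeq 2.0.3 and build mm10 were used. The strand setting and annotation release are not given in the sources used. Genes that overlap the 10 genes averaged at most 0.272 CPM. Library sizes exclude the table's 5 summary lines; the line for reads on no gene held a median of 43.4%. Coordinates are from GENCODE vM21, start regions from RefSeq (GRCm38.p6), which had an entry for 7 of the 9 genes looked up; Pdgfrb was not looked up.

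The test was edgeR 4.0.16 in R 4.3.3 (TMM, filterByExpr, quasi-likelihood, 24 residual degrees of freedom) in 10 comparisons, after the script was tested on simulated data. The approximate SE is |log2 fold change| over the root of the F statistic. Within groups no pair of libraries agreed within counting noise (chi-square over its degrees of freedom of 21.1 or more), so no library was counted as a copy. Alternatives were RLE scaling, no filter, 1 CPM in 5 libraries, a fold of 1.5 (glmTreat), a muscle score as covariate, only the groups compared, limma 3.58.1 voom with quality weights, DESeq2 1.42.0 and leaving out each library. The fit without 7 libraries, with muscle scores over 5 or brain scores over 3, was chosen after seeing the data.

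The 10 genes, the 17 lists and the tests were chosen with earlier results of these data known. All 10 genes were named in each comparison, and from each list up to 3 called genes with the smallest p. All called genes of the retinoid and reelin lists were named for CDDP against PBS. Named as most like the 10 genes were the 10 tested genes with the highest r. That r was to the mean standardised log2 CPM of the 10 genes other than Des. Python 3.11.15, pandas 2.3.3, numpy 2.4.6 and matplotlib 3.10.9 made tables and figures.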

Additional observations from a re-analysis of the deposited data

Results flagged for a closer look

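In 7 of 60 groups of 5 libraries (10 genes in 6 groups) 1 library lay far from the other 4 by Dixon's criterion, which chance meets in about 1 of 20 groups. Des was at 377 CPM in PBS replicate 2 (next 24.2), at 134 in CRS replicate 1 (next 32.5), at 73.6 in ACBP replicate 2 (next 14.1) and at 114 in CDDP+ACBP replicate 2 (next 29.1). These are 4 of the 6 libraries rich in skeletal muscle transcripts. Rgs5 was at 52.0 CPM in PBS replicate 2 (next 15.3) and at 24.2 in CRS replicate 1 (next 13.5), both also rich in muscle transcripts. Rgs5 was also at 42.0 CPM in ACBP replicate 3 (next 14.6), where the muscle list was low.

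The CDDP effect differed between the ACBP and PBS pumps by 1.31 for Reln, 1.16 for Pdgfrb and 1.16 for Ecm1 on the log2 scale. These passed the interaction term of edgeR's quasi-likelihood test, as did 19.7% of all genes, 8.38% as higher. None of them passed against a fold of at least 1.5. Without the 7 libraries rich in muscle or brain transcripts Reln (edgeR adjusted p = 0.1) and Pdgfrb (0.195) did not pass.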

How the results depend on the processing

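No paired analysis was possible because the labels number the libraries 1 to 30 and give the groups no shared replicate numbers. Against a fold of at least 1.5 (glmTreat), the count of stellate genes changed was 2 for CDDP against PBS (Ecm1 and Reln), 0 for CDDP against CRS and 0 for the interaction of CDDP and ACBP. Of all genes, 16.2% passed that fold for CDDP against PBS and 5.06% for the interaction. Fitted on the groups compared alone, CDDP against CRS gave 1 (Ecm1). Without the 7 libraries rich in muscle or brain transcripts the interaction gave 1 (Ecm1), beside 10.4% of all genes. With each library left out in turn the count ranged from 3 to 5 for CDDP against PBS, from 3 to 4 for CDDP+ACBP against CDDP, from 2 to 3 for CDDP against CRS, and was 3 for the interaction. The 100 log2 fold changes were each refitted under 39 alternatives. Of these values 3875 stayed on the same side of the threshold, 19 lost their call, 6 gained one and 0 called values reversed. Most of the 100 were not called in the main fit, so most of the 3875 were uncalled values that stayed uncalled. The 19 losses fell among the few called values, of Ecm1, Reln, Pdgfrb and Rgs5. No scaling moved the median of all genes by 0.1 on the log2 scale. TMM and RLE aim to keep most genes near 0, so this is no test of the scaling. For the other settings and comparisons in this section the share of all genes called is not given. Their counts show only how the calls depend on the setting. Several list counts moved by over 1.5 times. For CDDP against PBS, glmTreat gave 1 myofibroblast gene in place of 4, 1 proteoglycan or matrix gene in place of 9, 3 retinoid genes in place of 6 and 3 TGF-beta genes in place of 8. Fitted on the groups compared alone, other stellate genes were 4 in place of 8, myofibroblast genes 1, and proteoglycan or matrix genes 2, as with limma voom; these were 4 with no filter and without the 7 libraries. For CDDP+ACBP against CDDP, glmTreat gave 4 other stellate genes in place of 8, 1 retinoid gene in place of 5 and 3 TGF-beta genes in place of 8, and the fit of the groups compared alone gave 3 other stellate and 2 retinoid genes. Depth limits Hgf, whose lowest library held 6 reads, and Lum, whose lowest held 2. Why a call depended on a setting was not tested.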
